A study of Mus musculus with 14 samples.

Results

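The 10 genes described here are markers of adipocytes, the lipid-storing cells of fat: Adipoq, Cfd, Retn, Lep, Cidec, Plin1, Fabp4, Pck1, Pparg and Car3. They were chosen by symbol, and 12 of the 55681 probes on the array carry one of these symbols. Of the 10 genes, 9 passed the filter on dim probes and were tested among 14176 genes in all. The exception was Lep, whose probe was well above background on 1 of 14 arrays. The samples were whole skeletal muscles of mice, 1 Agilent 1-colour microarray per muscle sample. Ts1Cje mice, which model Down syndrome, are trisomic for the distal end of chromosome 16. Their controls were disomic C57BL/6 littermates (WT). The extensor digitorum longus (EDL), a hind limb muscle rich in fast fibres, gave 3 Ts1Cje and 3 WT arrays. The soleus, a calf muscle rich in slow fibres, gave 4 Ts1Cje and 4 WT arrays. The labels give the C57BL/6 background for all groups and no treatment, age or sex.

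Fat cells in muscle sit between the fibres and around the whole muscle, and a dissected muscle can carry either kind. Mature adipocytes form under the nuclear receptor PPARγ, encoded by Pparg, together with C/EBP factors. They store triglyceride in 1 large droplet coated by perilipin and CIDE proteins, and secrete adipokines such as adiponectin, leptin, resistin and adipsin. Some of the 10 genes are not restricted to fat cells. Fabp4 is also made by capillary endothelium, and Car3 is also an abundant enzyme of slow muscle fibres.

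Levels below are log2 signals relative to the 75th percentile of the same array, so that 0 is that percentile and a difference of 1 is a 2-fold difference in signal. A probe is well above background where the scanner software marked it so. Between 41.3% and 52.9% of probes were so marked on an array, the 75th percentile was 62.4 to 144 intensity units, and saturation was flagged for 0 probes. Arrays of 1 group correlated across genes with r between 0.979 and 0.988. Precision is limited by how few arrays each group has, and p-values reflect only the spread of these samples, since the labels do not say which animal each came from. In whole muscle, fewer fat cells and less RNA per fat cell cannot be told apart. Because each gene is read by its own probe, levels were compared between samples and not between genes.

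Arrays that stood apart are given first, since several results rest on them. In the EDL, WT replicate 3 had the highest level of the 6 EDL arrays for Adipoq, Cfd, Retn, Cidec, Plin1 and Pck1. In the soleus, WT replicate 1 had the lowest level of the 8 soleus arrays for Adipoq, Cfd, Retn, Lep, Cidec, Plin1, Fabp4 and Pck1. EDL WT replicate 3 also had the highest sum of 5 red blood cell genes, a linear level of 305, against 76.5 to 178 in EDL Ts1Cje and 143 and 101 on the other EDL WT arrays, and the part of blood in its values was not tested. The arrays lay on 2 slides of 7: the first held all 6 EDL arrays and soleus Ts1Cje replicate 1, and the second the other 7 soleus arrays. In WT, muscle and slide therefore cannot be told apart, and in Ts1Cje only soleus replicate 1 separates them. That replicate had the highest level of the 8 soleus arrays for Adipoq, Cfd, Cidec and Fabp4.

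The probes that read the genes below are identified by their first 30 bases of 60, with positions in the mm9 build as the files give them; exons and UTRs were not analysed here. They are shown because every level in the text is the signal of 1 such probe. Adipoq was read at chr16:23157576-23157635 on the plus strand, proximal to the triplicated part of that chromosome. Cfd was read at chr10:79355302-79355361 (plus), the probe used for Cidec lay at chr6:113374630-113374689 (minus), Plin1 was read at chr7:86866112-86866171 (minus), and Fabp4 at chr3:10204452-10204511 (minus). Pparg was read at chr6:115440213-115440272 (plus) and Car3 at chr3:14871781-14871840 (plus).
Adipoq: tgtatggggatggggaccacaatggactct
Cfd: aacatcacaaatggtaacatgacatcctga
Cidec: tttttccacgaatgagtgaatggtattaga
Plin1: catcagaaccaatttttaaggggcaccaga
Fabp4: aagaggcctggatggaaatttgcatcaaac
Pparg: gcaggaaagtcccacccgctgacaacgtgt
Car3: acatgcaaccgcagtgccttttgacatgat

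Start sites of 8 of the 10 genes were found in the RefSeq promoter table (GRCm38.p6), with 11 promoters between them, and the 250 bases before each start were searched. The motifs were the C/EBP half-site GCAAT, the nuclear receptor half-site AGGTCA, its direct repeat AGGTCANAGGTCA and the TATA box TATAAA, on both strands. GCAAT was present in the promoter of Adipoq, in both promoters of Cidec, in that of Plin1 (3 matches) and in that of Retn. The same letters occur in 23.08% of 32851 promoters of that length. AGGTCA was present in 2 of the 3 promoters of Pparg and occurs in 14.02% of promoters. The second Pparg promoter also held TATAAA, which occurs in 12.37%, and the direct repeat was present in none of the 11. A match describes these letters and is no measured binding site. Promoters that hold GCAAT are printed to show where the matches lie, with the half-site or its reverse complement in capitals and 1 of the 2 Cidec promoters. They lie at chr16:23146286-23146535 (Adipoq, plus), chr6:113434765-113435014 (Cidec, first start site, minus), chr7:79732777-79733026 (Plin1, minus) and chr8:3655520-3655769 (Retn, plus).
Adipoq: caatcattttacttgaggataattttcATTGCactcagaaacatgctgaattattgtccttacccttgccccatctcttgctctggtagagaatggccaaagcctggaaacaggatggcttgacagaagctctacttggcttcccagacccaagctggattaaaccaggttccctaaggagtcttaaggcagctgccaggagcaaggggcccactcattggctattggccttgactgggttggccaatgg
Cidec: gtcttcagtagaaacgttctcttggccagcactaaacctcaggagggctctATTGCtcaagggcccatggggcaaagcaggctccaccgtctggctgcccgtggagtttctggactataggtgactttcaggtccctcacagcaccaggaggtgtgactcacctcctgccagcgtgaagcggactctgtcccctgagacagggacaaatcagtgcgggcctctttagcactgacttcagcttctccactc
Plin1: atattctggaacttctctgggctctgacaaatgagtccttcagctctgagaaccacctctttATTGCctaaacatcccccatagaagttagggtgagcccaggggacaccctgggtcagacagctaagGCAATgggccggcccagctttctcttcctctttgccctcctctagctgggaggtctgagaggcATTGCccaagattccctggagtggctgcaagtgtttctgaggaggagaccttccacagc
Retn: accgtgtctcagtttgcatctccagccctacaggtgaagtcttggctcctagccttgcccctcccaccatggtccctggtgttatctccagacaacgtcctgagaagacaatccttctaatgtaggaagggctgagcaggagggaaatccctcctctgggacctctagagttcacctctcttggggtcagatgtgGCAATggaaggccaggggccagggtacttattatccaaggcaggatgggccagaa

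The secreted proteins come first. Adipoq encodes adiponectin, a hormone made by fat cells. Its level was -2.25, -0.91 and -1.41 in EDL Ts1Cje replicates 1 to 3, and -3.44, -1.68 and 0.79 in EDL WT replicates 1 to 3. In the soleus it was 2.22, 1.70, 1.99 and 0.67 in Ts1Cje replicates 1 to 4, and -1.10, 1.25, 1.87 and 1.03 in WT replicates 1 to 4. All Ts1Cje EDL arrays lay below all Ts1Cje soleus arrays, whereas in WT the groups overlapped, because EDL replicate 3 stood above soleus replicate 1. The probe was well above background on 13 arrays, all but EDL WT replicate 1.

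Cfd encodes adipsin (complement factor D), a serine protease of the alternative complement pathway secreted by fat cells. It was at 2.09, 3.40 and 2.77 in EDL Ts1Cje, and at 2.27, 2.24 and 5.31 in EDL WT. It was at 6.34, 5.77, 6.04 and 4.82 in soleus Ts1Cje, and at 3.72, 5.58, 5.99 and 5.09 in soleus WT. The pattern over arrays was that of Adipoq, with EDL WT replicate 3 inside the soleus range and soleus WT replicate 1 the lowest soleus array. Cfd was well above background on all 14 arrays, and its highest and lowest arrays differed 9.35-fold in the EDL and 6.16-fold in the soleus.

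Retn encodes resistin, an adipokine of mouse fat cells. Its probe of higher signal read -0.82, 0.25 and 0.14 in EDL Ts1Cje, and -0.03, -0.60 and 2.20 in EDL WT. It read 1.78, 1.79, 2.24 and 1.29 in soleus Ts1Cje, and 0.99, 2.34, 2.81 and 1.55 in soleus WT. Again EDL WT replicate 3 lay inside the soleus range. The second Retn probe was also well above background on all 14 arrays and gave 1.94 for EDL WT replicate 3, against -1.69 and -1.75 for the other WT EDL arrays. Between muscles its difference of means, EDL minus soleus, was -2.56 in Ts1Cje and -1.67 in WT, against -1.92 and -1.40 for the first probe. In the soleus the probes disagreed on the sign of Ts1Cje minus WT, with 0.29 for the second probe and -0.15 for the first.

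Lep encodes leptin, the hormone that signals fat stores to the brain. It was well above background only on soleus Ts1Cje replicate 3, at -3.26, and the level of soleus WT replicate 3 was -3.10. The EDL arrays read between -5.14 and -4.48 in Ts1Cje and between -5.14 and -4.51 in WT. The other soleus arrays read between -4.20 and -3.78 in Ts1Cje and between -4.95 and -4.26 in WT. Values this dim set no fold, and Lep was not tested between groups.

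Next are the proteins of the lipid droplet and of lipid handling. Cidec encodes a protein (FSP27 in the mouse) that promotes growth of the single droplet of white adipocytes. It was at -2.65, -0.98 and -1.88 in EDL Ts1Cje, and at -2.24, -2.71 and 0.79 in EDL WT. It was at 2.26, 1.93, 2.02 and 0.61 in soleus Ts1Cje, and at 0.20, 1.27, 1.63 and 0.93 in soleus WT. The EDL array of highest signal was WT replicate 3, and it exceeded the soleus arrays of lowest signal in both genotypes. A second Cidec probe, at chr6:113378116-113378175, was well above background on 6 arrays, none of them EDL, and did not pass the filter. On that probe too, EDL WT replicate 3 was the highest EDL array, at -3.09.

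Plin1 encodes perilipin 1, the coat protein that guards the droplet from lipases. It was at -5.10, -2.80 and -3.81 in EDL Ts1Cje, where no array was well above background, and at -3.45, -4.81 and -0.65 in EDL WT. It was at 0.11, -1.17, 0.02 and -1.47 in soleus Ts1Cje, and at -2.35, -0.77, 0.18 and -0.65 in soleus WT. The only EDL array with Plin1 well above background was WT replicate 3, which read the same as soleus WT replicate 4.

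Pck1 encodes the cytosolic phosphoenolpyruvate carboxykinase, which makes the glycerol backbone of triglyceride in fat cells and serves gluconeogenesis in liver. It was at -2.93, -2.26 and -3.94 in EDL Ts1Cje, and at -4.71, -4.80 and -1.29 in EDL WT. It was at 0.65, -0.26, 0.66 and -1.63 in soleus Ts1Cje, and at -1.96, -1.89, -0.13 and -0.34 in soleus WT. In the EDL it was well above background on Ts1Cje replicate 2 and WT replicate 3, and in the soleus on all 8 arrays.

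Fabp4 encodes the fatty acid binding protein of adipocytes, macrophages and capillary endothelium. It was at 6.07, 6.24 and 6.27 in EDL Ts1Cje, and at 6.02, 6.07 and 6.16 in EDL WT. It was at 7.09, 6.92, 7.04 and 6.68 in soleus Ts1Cje, and at 6.44, 6.57, 6.61 and 6.54 in soleus WT. The 4 groups were tight, and EDL WT replicate 3 lay within the EDL range of 6.02 to 6.27. The highest and lowest arrays of a muscle differed 1.19-fold in the EDL and 1.56-fold in the soleus, a narrower span than that of Cfd on the same arrays.

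Pparg, the gene of the receptor that drives adipocyte formation, was at 0.39, 0.44 and 0.61 in EDL Ts1Cje, and at 0.65, 0.40 and 0.52 in EDL WT. It was at 1.30, 1.25, 1.52 and 1.20 in soleus Ts1Cje, and at 0.93, 1.26, 1.08 and 0.91 in soleus WT. Every EDL array lay below every soleus array, and EDL WT replicate 3 was not apart from the other EDL arrays.

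Car3 encodes carbonic anhydrase III, found in fat cells and in slow fibres. It was at 6.44, 6.60 and 9.45 in EDL Ts1Cje, and at 5.86, 6.26 and 8.17 in EDL WT. It was at 8.31, 8.12, 8.52 and 9.01 in soleus Ts1Cje, and at 9.04, 8.66, 8.64 and 8.07 in soleus WT. Here the highest of all 14 arrays was EDL Ts1Cje replicate 3, an array with Adipoq at -1.41, and soleus WT replicate 1, the lowest soleus array for Adipoq, was the highest soleus array. Car3 thus stood apart from the other genes, and the slow fibre markers are given beside it further on.

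**Figure D1:**
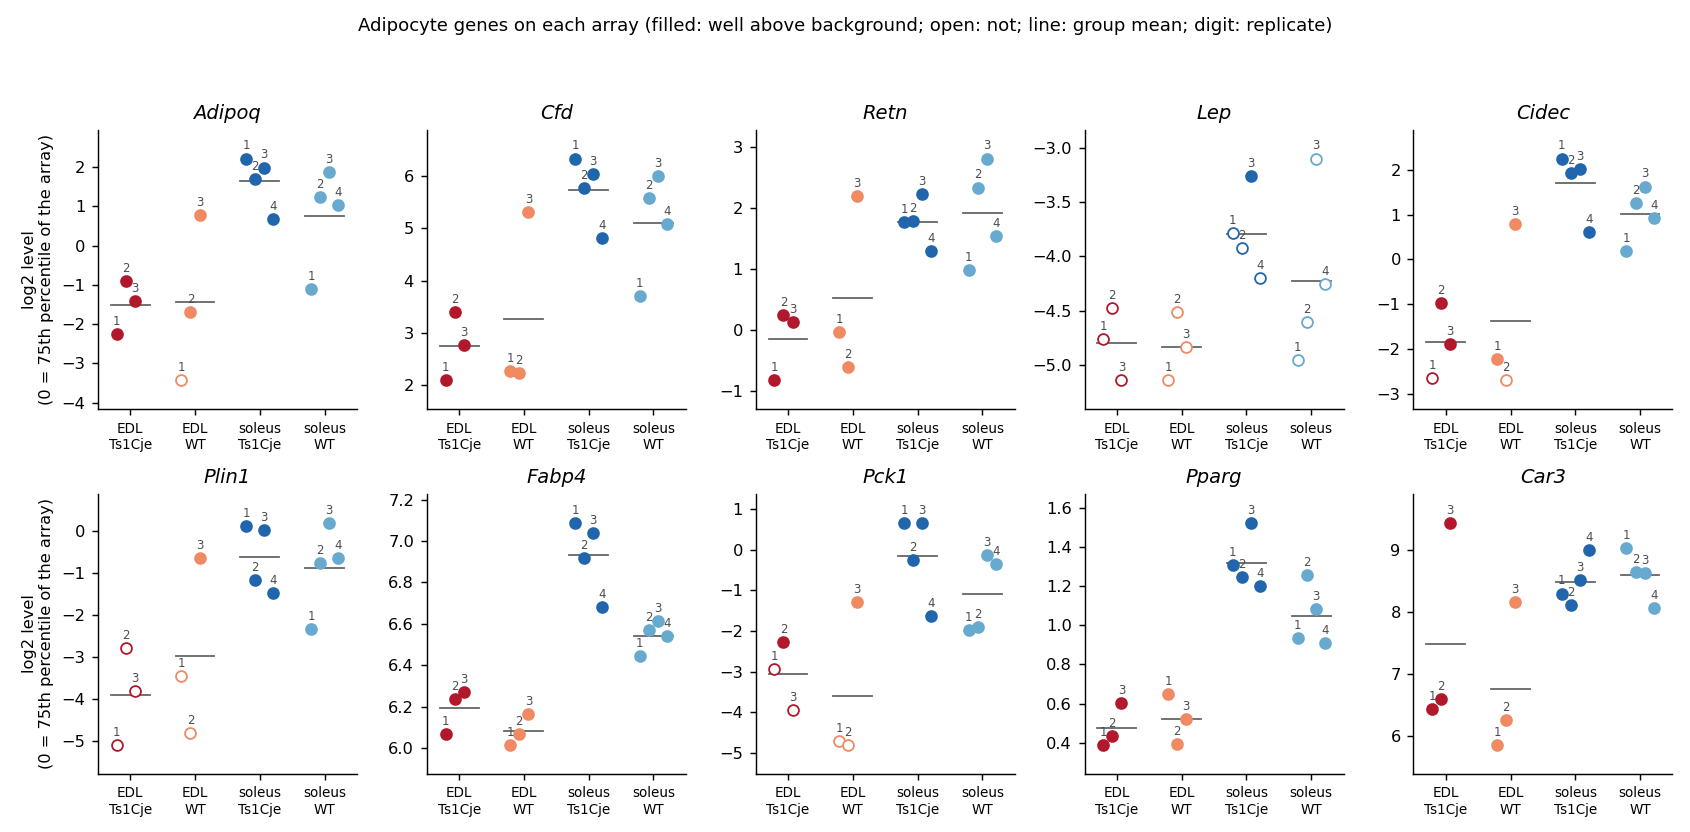
Log2 level of each of the 10 genes (y axis, relative to the 75th percentile of the array) on each of the 14 arrays, by group (x axis), with filled points for probes well above background, open points for others, a line at the group mean and the replicate number at each point. EDL WT replicate 3 lies at 0.79 for Adipoq and 5.31 for Cfd, inside the soleus range, whereas it lies at 6.16 for Fabp4, inside the EDL range.

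Muscles were compared within each genotype, EDL minus soleus. In Ts1Cje, 8 of the 9 tested genes fell in the EDL relative to the soleus (limma, Benjamini-Hochberg adjusted p under 0.05), and the groups of these 8 did not overlap. Among all 14176 genes, 12.4% were called lower in the EDL in this comparison (29.9% in either direction), and 15.0% had an EDL group wholly below the soleus group. Cidec, Plin1 and Pck1 passed the filter on dim probes only through the soleus arrays, so the filter itself favours a lower EDL value for them. Of the 5 genes well above background on every array, 4 fell, which were Fabp4, Cfd, Retn and Pparg.

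For Adipoq the mean level was -1.52 ± 0.68 in EDL Ts1Cje and 1.65 ± 0.68 in soleus Ts1Cje (SD, n = 3 and 4), a log2 difference of -3.17 ± 0.87 (SE; limma adjusted p = 0.0154), or 9.0-fold lower in the EDL. With normexp background correction the Adipoq difference was -1.78 (limma adjusted p = 0.0065). Cfd averaged 2.75 ± 0.65 in the EDL and 5.74 ± 0.66 in the soleus, and fell by 2.99 ± 0.72 (limma adjusted p = 0.00792). Both secreted proteins' genes thus differed several-fold between muscles of Ts1Cje mice, more than the spread within a group. On the log2 scale Cidec fell by 3.55 ± 0.72 (limma adjusted p = 0.00283), Pck1 by 2.90 ± 0.85 (0.022) and Retn by 1.92 ± 0.59 (0.0271). In EDL Ts1Cje Cidec was well above background on 2 of 3 arrays and Pck1 on 1 of 3, so the size of these differences depends on signals near background: with normexp they were -1.94 for Cidec and -1.09 for Pck1, both called. Plin1 was lower in the EDL, with a fitted difference of -3.27 (limma adjusted p = 0.0144). Its EDL mean of -3.90, against -0.63 in the soleus, was not well above background on any of 3 arrays. With EDL signals below the dimmest detected probe of their array raised to that probe, Plin1 was 4.90-fold lower. That is no lower limit, since the fitted difference was -0.90 with normexp. Fabp4 and Pparg had differences under 2-fold and the smallest p-values of the 9 genes: Fabp4 averaged 6.19 ± 0.11 in the EDL and 6.93 ± 0.18 in the soleus, 1.67-fold lower (limma adjusted p = 0.000302). Pparg averaged 0.48 ± 0.11 in the EDL and 1.32 ± 0.14 in the soleus, 1.79-fold lower (limma adjusted p = 0.000208). Car3 did not pass the test, with -0.99 ± 0.67 (limma adjusted p = 0.281); without EDL Ts1Cje replicate 3 the difference was -1.97 with an adjusted p of 0.0148.

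With slide as a block, an estimate that rests on soleus Ts1Cje replicate 1, 3 of these genes were called in Ts1Cje, namely Cidec (limma adjusted p = 0.0305), Fabp4 (0.00364) and Pparg (0.0124). Within the first slide alone, soleus Ts1Cje replicate 1 was the only soleus array. It was the highest of the 8 soleus arrays for Adipoq (2.22), Cfd (6.34), Cidec (2.26) and Fabp4 (7.09). The spread of the soleus cannot be estimated from 1 array, so no call is given for that fit. Leaving out EDL Ts1Cje replicate 1 left 4 called, Cfd, Cidec, Fabp4 and Pparg.

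In WT, all 9 differences were below 0, and 4 genes fell in the EDL, against 9.76% of all genes called lower (29.8% in either direction). Of the 5 genes well above background on every array, 2 fell, which were Fabp4 and Pparg. The other 2 called, Cidec and Pck1, passed the filter only through the soleus arrays, which favours a lower EDL value here too. Fabp4 averaged 6.08 ± 0.08 in EDL WT and 6.54 ± 0.07 in soleus WT (SD, n = 3 and 4), 1.37-fold lower (limma adjusted p = 0.00714). Pparg averaged 0.52 ± 0.13 in EDL WT and 1.04 ± 0.16 in soleus WT, 1.44-fold lower (limma adjusted p = 0.00542). These were the only genes of the 9 whose WT groups did not overlap, a state that 13.1% of all genes reached with the EDL lower. On the log2 scale Cidec fell by 2.39 ± 0.72 (limma adjusted p = 0.0247) and Pck1 by 2.52 ± 0.85 (0.0406), with Cidec well above background on 2 of 3 EDL WT arrays and Pck1 on 1 of 3. With normexp Cidec was at -1.07 (limma adjusted p = 0.0395), and Pck1 lost its call with normexp (-0.48, limma adjusted p = 0.331) and with quantile normalization (-2.60, 0.0517). Adipoq averaged -1.44 ± 2.12 in EDL WT and 0.76 ± 1.29 in soleus WT, a difference of -2.21 ± 0.87 that missed the threshold (limma adjusted p = 0.0726), as it did at -0.98 with normexp (0.129). Cfd at -1.82 (0.0753), Plin1 at -2.08 (0.0955), Retn at -1.40 (0.0919) and Car3 at -1.84 (0.0544) missed it too. Car3 was called with quantile normalization (-2.18, limma adjusted p = 0.0241) and with normexp (-1.99, 0.0494), and in 7 of the 20 fits run.

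The count in WT turned on single arrays. Without EDL WT replicate 3 all 9 genes were called, and without soleus WT replicate 1 the count was 6. Without both, a setting chosen after the values were seen, all 9 were called, with Adipoq at -3.94 (limma adjusted p = 0.000964). The count was 2 (Fabp4 and Pparg) without EDL WT replicate 1, without EDL WT replicate 2 or without soleus WT replicate 3, and 3 without soleus WT replicate 2 or 4. With the replicate number as a block, 7 were called, with Adipoq (limma adjusted p = 0.0159), Cfd (0.0479) and Retn (0.045) added to the 4. Same-numbered WT arrays also held the same slide position, so that block may stand for animal or for position. With slide as a block only Fabp4 was called (limma adjusted p = 0.0485). No WT array separates slide from muscle, so the slide term came from soleus Ts1Cje replicate 1 against the other soleus Ts1Cje arrays. Whether the genotypes differ in this muscle difference was tested with the interaction below.

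**Figure D2:**
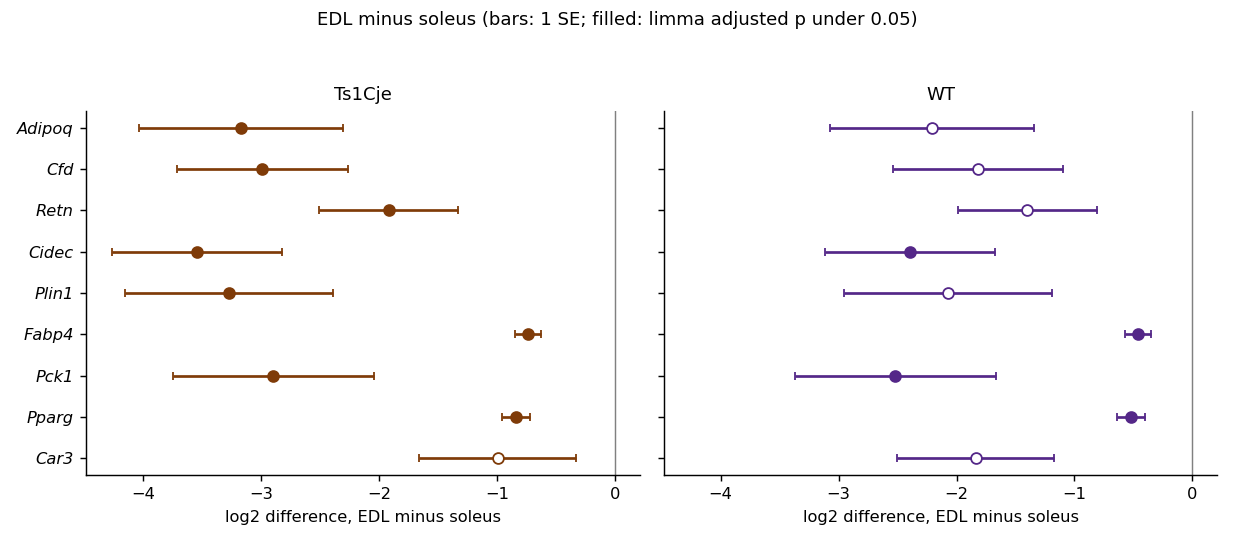
Fitted log2 difference, EDL minus soleus (x axis), of the 9 tested genes (rows) in Ts1Cje (left panel) and WT (right panel), with bars of 1 SE and filled points where the limma adjusted p was under 0.05. All points lie below 0, and the bars of Fabp4 and Pparg are far shorter than those of the other genes.

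The effect of Ts1Cje was compared with WT in each muscle. None of the 9 genes was called in the EDL (limma; 0 at an unadjusted p under 0.05), and 0.00705% of all genes were. Adipoq averaged -1.52 in Ts1Cje and -1.44 in WT, a difference of -0.08 with an SE of 0.93. Plin1, not well above background on any EDL Ts1Cje array, has no fold here. The other EDL differences, Ts1Cje minus WT, lay between -0.67 for Retn and 0.73 for Car3, all with a limma adjusted p of 0.99997. The signs of Adipoq, Cfd and Cidec depended on WT replicate 3: without it the Adipoq difference was 1.04, that of Cfd 0.50 and that of Cidec 0.63, none of them called. Fabp4 and Pparg, with little spread, differed by 0.11 and -0.05.

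In the soleus 0 of the 9 genes were called as well (limma), against 0.247% of all genes. At an unadjusted p under 0.05 there were 2, Fabp4 and Pparg, against 1931 of all 14176 genes. Fabp4 came nearest: its 4 Ts1Cje arrays, at 6.68 to 7.09, lay above its 4 WT arrays, at 6.44 to 6.61, and the difference was 0.39 ± 0.10, or 1.31-fold (limma adjusted p = 0.200). Of all genes, 6.10% had a Ts1Cje group wholly above the WT group, and the adjusted p of Fabp4 lay between 0.0659 and 0.503 under the alternatives. Pparg was at 1.32 ± 0.14 in Ts1Cje and 1.04 ± 0.16 in WT, a difference of 0.27 ± 0.11 (limma adjusted p = 0.330). Adipoq was at 1.65 ± 0.68 in Ts1Cje and 0.76 ± 1.29 in WT, with a difference of 0.88 ± 0.80 (0.617). Pck1 at 0.94, Cidec at 0.70, Cfd at 0.65 and Plin1 at 0.27 were higher on average in Ts1Cje, and Retn at -0.15 and Car3 at -0.11 lower, none of them called. The median of all genes in this comparison was 0.07. The sum of the red blood cell genes was 178 to 212 in soleus Ts1Cje and 117 to 141 in soleus WT, ranges that do not overlap, and its part in these differences was not tested.

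The interaction, the effect in the EDL minus that in the soleus, was called for 0 of the 9 genes (limma; 0 at an unadjusted p under 0.05) and for 0% of all genes. Leaving out Plin1, its values ranged from -1.17 for Cfd to 0.84 for Car3, all with a limma adjusted p of at least 0.987. The larger differences between muscles in Ts1Cje than in WT, such as -3.17 against -2.21 for Adipoq, were therefore not shown to differ.

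**Figure D3:**
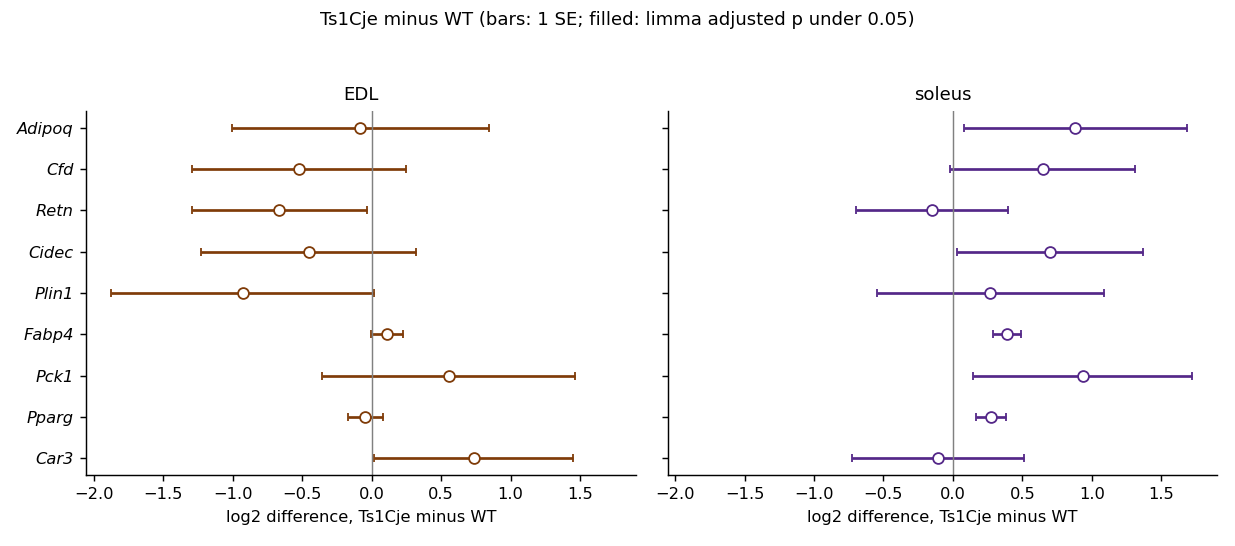
Fitted log2 difference, Ts1Cje minus WT (x axis), of the 9 tested genes (rows) in the EDL (left panel) and the soleus (right panel), with bars of 1 SE; no point is filled because no limma adjusted p was under 0.05. In the soleus Fabp4 lies at 0.39 and Pparg at 0.27 with short bars, and Adipoq in the EDL lies at -0.08 with a bar of 0.93 on either side. The point of Plin1 in the EDL rests on Ts1Cje signals that were not well above background.

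Within a muscle, the levels of the 10 genes were set against Adipoq over the arrays of both genotypes, 18 relations in all, with two-sided exact permutation tests adjusted over the 18. In the soleus (n = 8) Cfd followed Adipoq with Pearson's r = 0.989 (exact p = 2.48e-05, adjusted 0.000446) and the same order of arrays, Spearman's rho = 1 (exact p = 4.96e-05, adjusted 0.000893). Cidec followed with r = 0.923 (exact permutation, adjusted p = 0.00067) and rho = 0.976 (adjusted p = 0.00357). Without the 2 arrays farthest from the median of Adipoq, soleus WT replicate 1 and Ts1Cje replicate 4, r was 0.973 for Cfd and 0.950 for Cidec, with adjusted exact p of 0.025 and 0.0375. These 2 relations thus did not rest on those arrays.

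Plin1 (r = 0.900, rho = 0.833), Lep (0.797, 0.810) and Pck1 (0.786, 0.905) were also related to Adipoq in the soleus, with exact adjusted p for r of 0.0177, 0.0292 and 0.0251. Without the 2 arrays, and so with 6, their r was 0.648, 0.729 and 0.736 and none passed (exact adjusted p = 0.320, 0.231 and 0.214); the r of Lep and Pck1 moved little, and 7 of the 8 Lep values were not well above background. Fabp4 (r = 0.730, rho = 0.810), Retn (0.720, 0.643), Pparg (0.640, 0.714) and Car3 (-0.620, -0.5) did not pass, with exact adjusted p for r of 0.0637, 0.0741, 0.127 and 0.127. Car3 alone had a negative sign, which turned to 0.225 without the 2 arrays.

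Within the second slide, which held 7 of the 8 soleus arrays, r was 0.988 for Cfd, 0.914 for Cidec, 0.882 for Plin1, 0.811 for Lep, 0.801 for Retn and 0.743 for Pck1 (exact permutation, adjusted p = 0.00179, 0.00268, 0.025, 0.0299, 0.0357 and 0.0435). With group means removed, r in the soleus was 0.987 for Cfd, 0.904 for Cidec, 0.935 for Plin1 and 0.878 for Retn. All of these had a permutation adjusted p under the threshold, whereas Lep at 0.760 and Pck1 at 0.732 did not pass (permutation adjusted p = 0.0747 for both). Removing group means ties the values of a group to each other, so these p-values are not exact.

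In the EDL (n = 6, all on 1 slide) Cfd was related to Adipoq with r = 0.897 (exact permutation p = 0.00833, adjusted 0.0292) and rho = 0.83 (adjusted 0.117). Without WT replicates 1 and 3, r was 0.947, and with 4 arrays the smallest exact p is 0.0417 before adjustment (adjusted p = 0.214). Cidec (r = 0.854, rho = 0.771), Pck1 (0.795, 0.714), Retn (0.790, 0.83) and Plin1 (0.726, 0.657) had exact adjusted p for r between 0.0741 and 0.148. Fabp4 (0.593, 0.714), Car3 (0.554, 0.771), Lep (0.320, 0.371) and Pparg (-0.211, -0.029) did not pass either, and Pparg turned to 0.365 without those 2 arrays. Several of these EDL values were not well above background. Lep was so marked on no EDL array, Plin1 only on WT replicate 3, and Pck1 only there and on Ts1Cje replicate 2. Adipoq itself was not so marked on WT replicate 1.

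**Figure D4:**
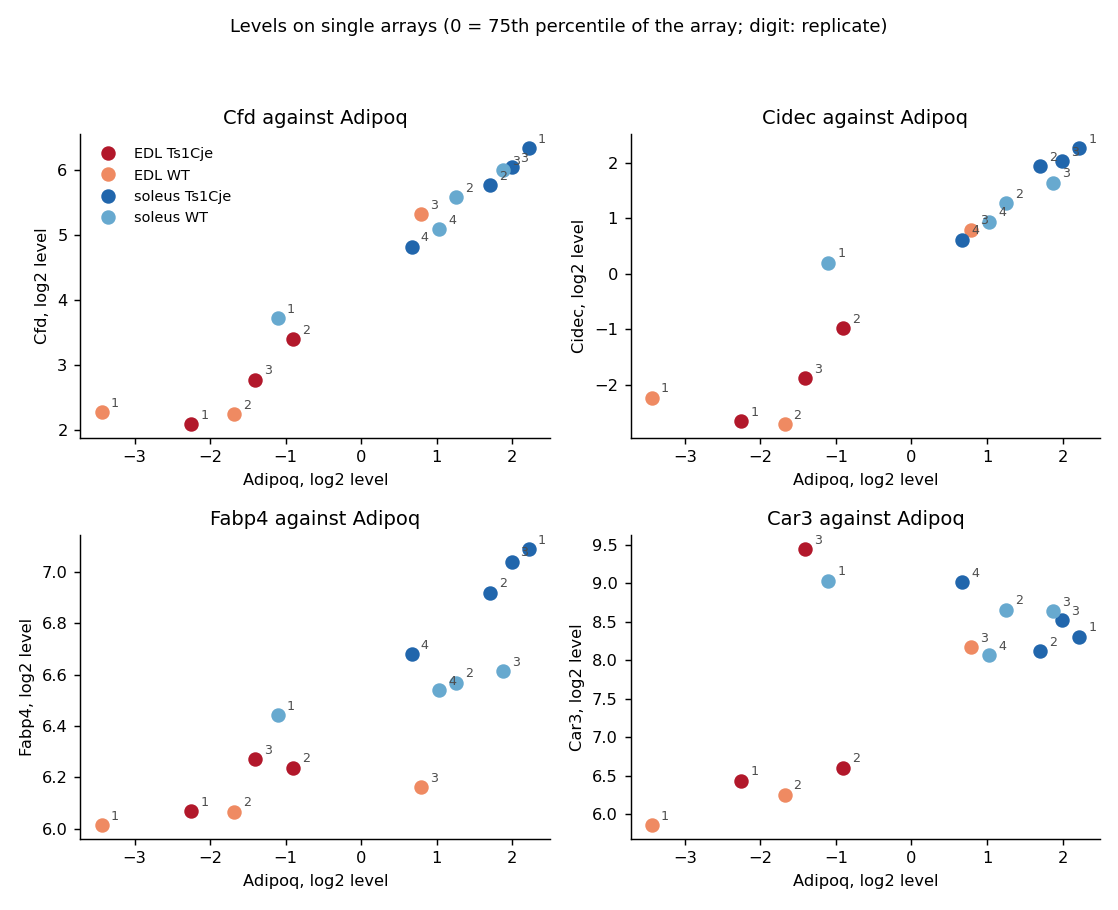
Log2 level of Cfd, Cidec, Fabp4 and Car3 (y axes) against that of Adipoq (x axis) on the 14 arrays, coloured by group and marked with the replicate number. In the soleus Cfd and Cidec are higher where Adipoq is higher (r = 0.989 and 0.923), Fabp4 splits by muscle, and Car3 of EDL Ts1Cje replicate 3 lies at 9.45.

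Among all genes that are not of the 10, those of highest correlation with Adipoq over the 8 soleus arrays are given as a description. They were Acp5, an acid phosphatase of macrophages and osteoclasts (r = 0.977 in the soleus and 0.967 in the EDL), Ces1d, a carboxylesterase of fat cells (0.977 and -0.372), Ubash3b (0.972 and 0.280), Rps27l (0.961 and -0.544), Ifi27l2a, an interferon-inducible gene (0.960 and 0.946), and Plvap, of fenestrated endothelium (0.959 and 0.649). Acp5 and Ifi27l2a were high in both muscles by this measure, whereas Ces1d and Rps27l were negative in the EDL. The share of all genes with an EDL value as high was not computed. For Car3 the most correlated genes over the soleus arrays were Cep85l (0.959 in the soleus and -0.456 in the EDL), Mier1 (0.952 and 0.057), Mcm8 (0.945 and -0.730) and Csnk1a1 (0.917 and 0.133).

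Other genes of fat cells were read from lists. The counts of each list are to be read against all genes: in Ts1Cje 12.4% were called lower and 17.5% higher in the EDL, and in WT 9.76% lower and 20.0% higher. Of 36 other white adipocyte genes, 31 were tested. In Ts1Cje 17 fell and 3 rose in the EDL relative to the soleus, with a median log2 difference of -1.18 (0.01 over all genes). In WT 9 fell and 3 rose, with a median of -0.87 (0.07 over all genes). Dgat2, which makes triglyceride, was at -2.65 in Ts1Cje and -2.40 in WT, the natriuretic peptide clearance receptor gene Npr3 at -2.94 and -2.88, Adig (adipogenin) at -2.14 and -1.66, and the lipoprotein lipase gene Lpl at -1.89 and -1.73. Gpd1, which makes glycerol 3-phosphate and is a gene of fast fibres too, rose by 2.97 and 2.63. Several of these genes, Lpl, Cd36, Slc2a4, Pnpla2, Klf15, Gpd1 and Angptl4, are also made by muscle fibres. Of the list 0 genes were called by genotype in the EDL and 0 in the soleus (limma; 0 at an unadjusted p under 0.05 in both). The list's median r with Adipoq was 0.42 in the soleus and 0.31 in the EDL, against 0.16 and -0.02 over all genes. It was not particular to fat genes: the 5 red blood cell genes had a median r of 0.45 and 0.40, and the 17 progenitor and mesenchymal genes 0.28 and 0.35. The untested genes were Lgals12, Trarg1, Adrb3, Itgad and Gdpd3, with a probe well above background on 1, 6, 8, 0 and 5 arrays.

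**Figure D5:**
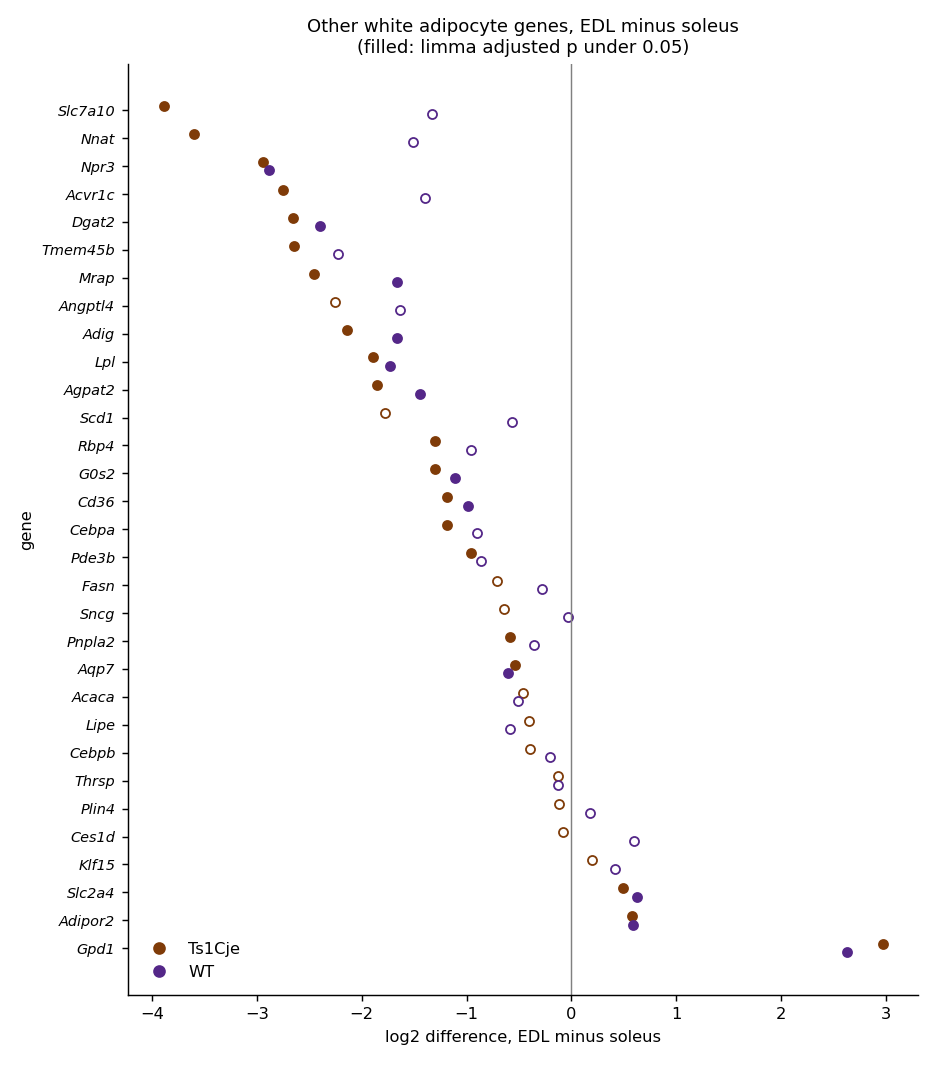
Fitted log2 difference, EDL minus soleus (x axis), of the 31 tested other white adipocyte genes (rows), in Ts1Cje and WT, with filled points where the limma adjusted p was under 0.05. Most points lie below 0, with 17 called lower in Ts1Cje and 9 in WT, and Gpd1 lies near 3 on the other side.

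Of 12 brown or beige adipocyte genes, 6 were tested, and Ucp1 and Elovl3, which mark thermogenic fat, were well above background on 0 arrays. In both genotypes 2 rose and 1 fell in the EDL. Zic1 rose by 3.49 in Ts1Cje and 2.69 in WT and Otop1 by 1.27 and 1.14, whereas Cidea, a droplet protein related to Cidec, was at -2.87 and -2.68. Of the 13 droplet proteins on another list, 6 fell and 2 rose in Ts1Cje and 5 fell and 2 rose in WT. Among them the monoglyceride lipase gene Mgll was at -1.12 in Ts1Cje and -0.85 in WT, Plin2 at -0.91 in both, and the seipin gene Bscl2 at 0.58 and 0.69. Plin2, a droplet coat of many cell types, thus fell in both genotypes.

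The 21 other genes of the PPARγ network included no gene that fell in the EDL. In Ts1Cje 4 rose and in WT 5, among them Stat5b (0.94 in Ts1Cje and 1.18 in WT), the coactivator Ncoa1 (0.59 and 0.62) and the partner receptor Rxrb (0.37 and 0.49). These counts are near the 17.5% and 20.0% of all genes called higher. Pparg itself fell, as given above. Of 9 fatty acid binding proteins besides Fabp4, 3 were tested, and Fabp3, the protein of heart and slow muscle, fell by 1.79 in Ts1Cje and 1.53 in WT. Fabp12 was called in WT, at -0.94.

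Of 15 carbonic anhydrases besides Car3, 9 were tested. Car11 rose by 1.49 in Ts1Cje and 1.42 in WT and Car14 by 0.83 and 1.02, Car2 was called at -0.78 and -0.77, and Car7 in WT at -0.68. Of 13 genes of adipokine receptors and of gluconeogenesis, 10 were tested, with 3 that rose and 2 that fell in Ts1Cje and 4 and 1 in WT. The adiponectin receptor gene Adipor2 rose by 0.57 in Ts1Cje and 0.59 in WT, the muscle fructose bisphosphatase gene Fbp2 by 1.97 and 1.72, and G6pc3 by 0.66 and 0.79. The receptor gene C3ar1 was called lower in both genotypes, at -1.13 and -1.81, and Cap1, which encodes a resistin receptor in human cells, in Ts1Cje alone, at -0.52. By genotype, 0 genes of the brown or beige, droplet, PPARγ network, fatty acid binding, carbonic anhydrase and receptor lists were called in either muscle (limma). At an unadjusted p under 0.05 these lists held 0 genes in the EDL, and 2, 1, 1, 0, 0 and 2 genes in the soleus. Among all 14176 genes, 410 in the EDL and 1931 in the soleus were under it.

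Markers of the other cells of muscle moved with some of these results, and their part was not tested. The 13 slow fibre genes all fell in the EDL in both genotypes (median -5.94 in Ts1Cje and -5.07 in WT), and 11 of 12 fast fibre genes rose. Summed over the slow fibre list, the linear level was 194, 167 and 611 in EDL Ts1Cje and 601, 137 and 546 in EDL WT, against 7808 to 10338 in soleus Ts1Cje and 6836 to 8320 in soleus WT. The EDL array highest in Car3, Ts1Cje replicate 3, thus had the highest slow fibre sum of the EDL, but WT replicate 1, at 601, had the lowest Car3. Of the fast fibre genes, 3 fell by genotype in the soleus, which were Myh4 (-4.12), Actn3 (-1.95) and Pvalb (-1.86).

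Capillary endothelium also makes Fabp4. Of its 14 markers, 2 fell in the EDL in Ts1Cje, Cdh5 (-0.65) and Tie1 (-0.47), and 0 in WT; the first count is near the 12.4% of all genes called lower. By genotype 0 of the 14 were called in the soleus (limma). At an unadjusted p under 0.05 there were 4, against 1931 of all 14176 genes. These were Eng (0.46), Cdh5 (0.53), Vwf (0.49) and Robo4 (0.31), all higher in Ts1Cje. Over the list 8 differences were above 0 and 6 below, with a median of 0.05 (0.07 over all genes). The part of endothelium in the Fabp4 difference was not tested. The summed level of the list was 322 to 430 in EDL Ts1Cje, 297 to 382 in EDL WT, 306 to 380 in soleus Ts1Cje and 293 to 376 in soleus WT. The ranges of the groups overlap, and no marker on the list was below the filter. Of 11 macrophage markers tested, 3 fell in the EDL in each genotype, C1qc by 0.92 in Ts1Cje and 0.83 in WT. The summed levels were 137 to 160 in EDL Ts1Cje, 109 to 197 in EDL WT, 166 to 180 in soleus Ts1Cje and 132 to 189 in soleus WT, where the brightest genes weigh most. As a mean of log2 levels the macrophage list did separate the muscles, at 0.61 to 0.71 in EDL Ts1Cje and 0.36 to 0.61 in EDL WT, against 0.80 to 1.38 in soleus Ts1Cje and 0.79 to 1.1 in soleus WT. Cd163 was well above background on 0 arrays. Of 17 genes listed for adipocyte progenitors and mesenchymal cells, 4 rose and 2 fell in Ts1Cje and 4 rose and 0 fell in WT. Dlk1, a preadipocyte gene, was higher by 1.01 and 1.49. The 2 that fell in Ts1Cje were Zfp423, a preadipocyte factor, at -0.66, and Tcf4 at -0.48. The counts that rose are near the 17.5% and 20.0% of all genes. Of 12 genes listed for skeletal muscle, 7 rose and 1 fell in the EDL in Ts1Cje, and 6 rose and 1 fell in WT. Tnnt3 is also on the fast fibre list, so these counts do not separate the tissue from its fibre type. Of 5 tested red blood cell genes 1 rose in each genotype (Slc4a1, by 1.07 and 1.22), and of 3 tested epithelial genes 1 fell in Ts1Cje (Krt10, at -0.38) and 0 in WT.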

How the data were processed

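Cy3-labelled cRNA from total RNA of 14 muscle samples was measured on Agilent arrays with 1 colour, per the labels' protocols. Spots were extracted by the authors with Agilent Feature Extraction. The file headers give its version as 11.5.1.1, and the submitters' processing notes as 9.1. From the deposited scanner files the background-subtracted intensity (gProcessedSignal) was used, which is not normalized between arrays, and, per the file headers, other columns that flag spots as outliers, saturated or well above background. Normalized log2 values that the authors deposited as 1 table, scaled to the 75th percentile and centred per probe, correlated with the values used here at 0.9999 or more on every array and served as an alternative. Probe positions are those of mm9, and promoters come from RefSeq (GRCm38.p6).

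Of 62976 spots, 3671 were controls. Spots of 1 probe were averaged without outliers, giving 55681 probes, of which 33822 had a symbol in the files and 31833 were named through the reference. Values were log2 signals minus the log2 75th percentile of the array. Probes detected (well above background) on all arrays of 1 or more groups were kept (25191 probes, 18526 with a symbol), and a gene was its kept probe of highest mean. A model with a mean for each group was fitted to all 14 arrays in limma 3.58.1 (R 4.3.3), two-sided, with Benjamini-Hochberg adjustment over 14176 genes. Genes with an adjusted p under 0.05 were called, and only those are said to have risen or fallen. The SE of log2 differences had a median of 0.18 in the EDL, 0.16 in the soleus and 0.17 between muscles. Exact permutation tests used NumPy 2.4.6. The fit was tested on simulated data.

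Replicate numbers come from the labels, and the series' design text speaks of littermate pairs without tying numbers to them. Same-numbered arrays deviated together in the EDL (r = 0.400, 0.116 and 0.313 between genotypes) and in WT (0.512, 0.408 and 0.329 between muscles). Same-numbered WT arrays of both muscles also held the same position on their slides, and same-numbered EDL arrays held neighbouring positions. Pairing of animals and position of arrays therefore cannot be told apart. The fit reported has no block; the fit with the replicate number as a block is given beside the WT result, whose count it changes. Same-numbered arrays did not deviate together in the soleus (-0.123, -0.294, 0.009 and -0.135) or between the muscles of Ts1Cje (-0.088, -0.156 and 0.117).

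The 10 genes and the other lists, 15 in number, were chosen with earlier results of these data known. Named genes were the 10 in every comparison, the called members of each list (up to 4 of smallest p per comparison), or its 2 of highest level where none was called, and the 6 and 4 genes most correlated with Adipoq and Car3 over the soleus arrays. Some called members, most of them muscle fibre genes, and the genes of lists with no call are not printed, a choice made with the values in view. Alternatives changed the normalization, background correction (normexp on the median spot signal), filter, probe rule, variance model, weights, arrays fitted, replicate block and slide.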

Additional observations from a re-analysis of the deposited data

How the results depend on the processing

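The 4 arrays at most per group and, for Lep, Plin1, Pck1 and Cidec in the EDL, signals near background limit what these data can show. The setting that leaves out both EDL WT replicate 3 and soleus WT replicate 1 was chosen after seeing the data. All other alternatives were run as listed, except those within 1 slide for WT muscles, which share no slide. The causes of the changes below were not tested, beyond fewer arrays or genes in a fit where the setting says so.

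Genes called by genotype in the EDL, 1 in the fit reported, numbered 2 with quantile normalization, 2 with no filter, 0 with only probes well above background on every array and 3 with a trended robust variance, and 1 to 3 when single arrays were left out. In the soleus, 35 were called, against 15 with normexp background correction, 6 with no filter, 23 with the mean of probes, 4 with only the arrays compared, 7 with the replicate block, 18 with slide as a block, 1 within the second slide, 3 leaving out both arrays, and 10 to 28 without single arrays. For the interaction, 0 to 1 genes were called without single arrays.

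Between the muscles of Ts1Cje, 4244 genes were called, against 2069 with slide as a block and 494 within the first slide. Of the 9 adipocyte genes tested, 8 were called, against 3 with slide as a block and 4 to 8 without single arrays. With only probes well above background on every array, 4 of the 5 tested were called, as many of those 5 as in the fit reported. Between the muscles of WT, 4224 genes were called, against 2280 with normexp and 1365 with slide as a block. Of the adipocyte genes, 4 were called, against 2 with no filter, 7 with array weights, 7 with the replicate block, 1 with slide as a block, 9 leaving out both arrays and 2 to 9 without single arrays. The replicate block changed no other call of an adipocyte gene. It gave 0 by genotype in the EDL and 8 between the muscles of Ts1Cje, where same-numbered arrays did not deviate together.

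Some genotype differences that were not called changed sign. Those of Plin1 in the EDL and its interaction rest on EDL Ts1Cje signals that were not well above background, so nothing is read from their sign. Leaving out both arrays, the EDL difference was 1.04 for Adipoq, 0.50 for Cfd, 0.63 for Cidec, 0.23 for Plin1 and 0.17 for Retn, the soleus difference was 0.0366 for Car3 and -0.22 for Plin1, and the interaction was 0.78 for Adipoq, 0.31 for Cfd, 0.20 for Cidec, 1.07 for Pck1, 0.44 for Plin1 and 0.63 for Retn. Pck1 was at -0.0365 in the EDL with normexp and at 0.00701 for the interaction with array weights, and Retn at 0.0714 in the soleus with the mean of its probes. Without single arrays, the EDL difference ran from -1.08 to 1.04 for Adipoq, -0.24 to 1.44 for Car3, -1.04 to 0.50 for Cfd, -1.11 to 0.63 for Cidec, -0.0419 to 1.71 for Pck1, -1.85 to 0.23 for Plin1, -0.11 to 0.0175 for Pparg and -1.23 to 0.17 for Retn. The soleus difference ran from -0.29 to 0.0366 for Car3, -0.22 to 0.63 for Plin1 and -0.46 to 0.15 for Retn, and the interaction from -1.96 to 0.15 for Adipoq, -0.13 to 1.55 for Car3, -1.69 to -0.15 for Cfd, -1.81 to -0.0665 for Cidec, -2.12 to -0.0387 for Plin1, -0.98 to 0.78 for Pck1 and -1.08 to 0.32 for Retn. Among the relations to Adipoq, that of Car3 in the soleus was 0.225 and that of Pparg in the EDL 0.365 without the 2 arrays farthest from the median.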

Other observations

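The mean log2 level over the 31 tested other white adipocyte genes was 0.86, 0.85 and 0.89 in EDL Ts1Cje and 0.96, 0.70 and 1.42 in EDL WT. In the soleus it was 2.16, 2.13, 2.21 and 1.69 in Ts1Cje and 1.49, 1.69, 2.05 and 1.83 in WT. EDL WT replicate 3 was thus the highest EDL array and soleus WT replicate 1 the lowest soleus array on this list as well, and the ranges of the muscles did not overlap. The mean of log2 levels of the macrophage list separated the muscles too. As a sum of linear levels, where the brightest genes weigh most, the white adipocyte list overlapped between muscles, at 710 to 905 in EDL Ts1Cje and 762 to 956 in EDL WT, against 729 to 904 in soleus Ts1Cje and 677 to 790 in soleus WT, and EDL WT replicate 3 had the lowest sum of the EDL WT arrays. These values were set beside those of the 10 genes after the levels of single arrays were seen, and no test was run on them.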
